A study of Mus musculus with 12 samples.

Results

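The genes described here are 10 that let T cells adhere and migrate: the integrin subunits Itgal, Itgb2, Itga4, Itgb1, Itgb7, Itga6 and Itgae, the selectin ligand Selplg, the chemokine receptor Cxcr4 and the sphingosine 1-phosphate receptor S1pr4. They were taken by gene symbol, and 9 of the 10 had a locus of that name among the 12918 named loci and 15125 loci of all kinds in the files. RNA was measured in CD4 T cells of mouse spleen in 4 groups of 3 libraries each: KIKO activated, KI activated, KIKO naive and KI naive. The labels give the genotypes only by those names, without the altered gene, the strain or the age of the mice; the series as a whole concerns a faulty proteasome in T cells. Activated cells were naive cells given CD3/CD28 activator beads for 16 h, a stand-in for antigen and co-stimulation. No label says whether the 3 libraries of a group came from separate animals, so p-values measure the spread between these libraries, which may be technical. Levels are in FPKM, a length-corrected share of the sequenced fragments, so that genes can be set side by side; the read depth behind a value is unknown. The titles of the KIKO activated libraries say T cells without naming CD4.

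Integrins are pairs of an alpha and a beta chain that grip ligands on other cells or in the matrix. Itgal with Itgb2 forms LFA-1, the leukocyte integrin that binds ICAM proteins and holds T cells to vessel walls and to antigen-presenting cells. Itga4 pairs with Itgb1 to bind VCAM and with Itgb7 to bind MAdCAM, the address molecule of gut vessels, while Itga6 with Itgb1 binds laminin and Itgae with Itgb7 binds E-cadherin of epithelia. Selplg encodes the P-selectin ligand on which leukocytes roll, Cxcr4 the receptor of the chemokine CXCL12, and S1pr4 a lymphocyte receptor for sphingosine 1-phosphate. Integrin avidity is switched on from inside the cell through the small GTPase Rap and the adaptors talin and kindlin.

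Sequences are shown for the regions where the results below differ between members. The first set is the promoters of Itga4 and Itgb7, whose levels fell on activation, and of Itgb1, whose level rose. They are 300 bases long, most of them before the gene start (RefSeq, build GRCm38.p6), and of the 10 members these and the promoters of S1pr4 and Cxcr4 matched an entry. Capitals mark the letters CACCC (a core bound by KLF factors), CCGGAA (ETS factors) and TGTGGT (RUNX factors), or the same read on the other strand, which gives GGGTG for the first, TTCCGG for the second and ACCACA for the third.
Itga4, chr2:79255176-79255475, plus strand: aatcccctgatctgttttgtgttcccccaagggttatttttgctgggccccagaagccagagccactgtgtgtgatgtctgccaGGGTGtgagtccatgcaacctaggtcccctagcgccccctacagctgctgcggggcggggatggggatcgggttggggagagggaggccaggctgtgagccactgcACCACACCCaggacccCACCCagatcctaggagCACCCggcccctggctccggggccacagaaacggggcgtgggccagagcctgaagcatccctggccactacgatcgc
Itgb7, chr15:102231886-102232185, minus strand: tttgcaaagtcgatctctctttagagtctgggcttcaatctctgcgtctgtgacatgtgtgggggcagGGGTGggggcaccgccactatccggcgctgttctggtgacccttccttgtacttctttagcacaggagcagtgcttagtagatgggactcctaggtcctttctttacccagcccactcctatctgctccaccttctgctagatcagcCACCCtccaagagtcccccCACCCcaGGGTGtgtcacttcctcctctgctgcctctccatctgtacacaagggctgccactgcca
Itgb1, chr8:128685404-128685703, plus strand: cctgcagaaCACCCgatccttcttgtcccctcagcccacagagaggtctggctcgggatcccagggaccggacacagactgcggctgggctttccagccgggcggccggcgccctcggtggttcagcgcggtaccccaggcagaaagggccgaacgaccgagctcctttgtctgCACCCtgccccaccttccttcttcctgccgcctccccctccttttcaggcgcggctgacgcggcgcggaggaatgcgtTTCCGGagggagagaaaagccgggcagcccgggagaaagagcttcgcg
The Itga4 promoter held CACCC 4 times and TGTGGT once, the 2 motifs overlapping by 2 bases at 1 place, the Itgb7 promoter held CACCC 4 times, and the Itgb1 promoter held CACCC 2 times and CCGGAA once. Of all 32851 promoters in the table, 57.5% held CACCC, 14.9% CCGGAA and 16.8% TGTGGT on either strand, so these matches only describe the letters.

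The second set is the 2 exons that change the cytoplasmic tail of an integrin chain and that the files list as skipped or kept. Capitals mark the exon, and 20 bases of the spliced neighbours stand in lower case on each side (GENCODE M21 transcripts; coordinates of the files, GRCm39, plus strand).
Itga6, 130 bp, chr2:71683878-71684007: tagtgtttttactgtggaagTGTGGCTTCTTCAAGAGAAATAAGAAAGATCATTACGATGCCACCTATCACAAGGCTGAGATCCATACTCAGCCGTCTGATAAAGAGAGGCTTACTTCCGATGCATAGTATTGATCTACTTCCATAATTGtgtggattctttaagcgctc
Itgb1, 81 bp, chr8:129453464-129453544: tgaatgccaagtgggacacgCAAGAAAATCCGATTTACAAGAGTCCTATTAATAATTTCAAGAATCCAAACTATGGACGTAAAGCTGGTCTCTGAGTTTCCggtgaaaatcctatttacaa
The Itga6 exon gives the tail known as A and its omission the tail known as B, and the Itgb1 exon gives the tail known as D, which is known from muscle. The introns on either side of both exons had the same lengths in the files as in GENCODE.

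The libraries fitted their label as T cells. Of 7 CD4 T cell markers, 6 had a locus, the exception being Lck, and their summed level was 622 to 888 FPKM in KIKO activated, 1164 to 1387 in KI activated, 1002 to 1111 in KIKO naive and 1386 to 1635 in KI naive libraries. Thus the T cell marker sum was itself lower in KIKO than in KI libraries in both states, with no overlap. Its members were not alike. Cd247 overlapped between the activated genotypes, at 135 to 185 FPKM in KIKO and 155 to 188 FPKM in KI, and Cd3d between the naive ones. Cd5 rose on activation, from 83.5 to 89.5 FPKM in KI naive to 237 to 348 FPKM in KI activated libraries, and had 92.8 to 109 FPKM in KIKO activated libraries. KIKO activated 2 and KIKO naive 2 stood apart by their myeloid transcripts, the neutrophil genes S100a8 and S100a9 among them. The summed level of the 7 myeloid markers with a locus, of 10, was 172 FPKM in KIKO activated 2 and 216 in KIKO naive 2, against at most 7.15 in every other library, and Itgam, Cd14 and Mpeg1 were not listed in any. KIKO naive 2 also listed the fewest transcript events, 85319 against 100188 to 112679 in the other libraries. The NK markers were also highest in these libraries within their groups, with sums of 11.8 FPKM in KIKO activated 2 and 24.7 FPKM in KIKO naive 2, against group medians of 3.45 and 11.9. Of these markers Gzma, a granzyme of cytotoxic cells, had 7.57 FPKM in KIKO activated 2 and 8.01 FPKM in KIKO naive 2 and was listed in no other library. Neutrophils and NK cells carry Itgal and Itgb2 too, so values without these libraries stand beside those results. Of the 2 CD8 T cell markers, Cd8b1 had 8.39 to 10.0 FPKM in KIKO activated and 10.9 to 12.8 FPKM in KI activated libraries. It had 12.5 to 16.1 FPKM in KIKO naive and 6.51 to 8.12 FPKM in KI naive libraries. Cd8a was at most 0.59 FPKM in any library. In bulk RNA, fewer cells of a type and less RNA per cell cannot be told apart.

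Each gene in a file is a locus with a list of transcript events (starts, ends, skipped exons), and its level is the largest of the summed starts, the summed ends and the largest single event. Positions given for a locus span its listed events and can be shorter than the gene. For Itga6 they stop before the last exon. The loci named Itgal, Itgb2, Itga4, Itgb1, Itgb7 and Itga6 had exon, intron or transcript lengths of their own gene in GENCODE M21. Those named Itgae and S1pr4 carried lengths of a neighbour. The one named Selplg matched its gene in 1 start exon and in 1 of 4 distances from a start to its end. Levels were compared as log2(FPKM + 1) with limma's moderated test, adjusted by Benjamini-Hochberg over all 9743 loci tested, and called under 0.05. Adding 1 understates the change of genes at low levels.

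**Figure D1:**
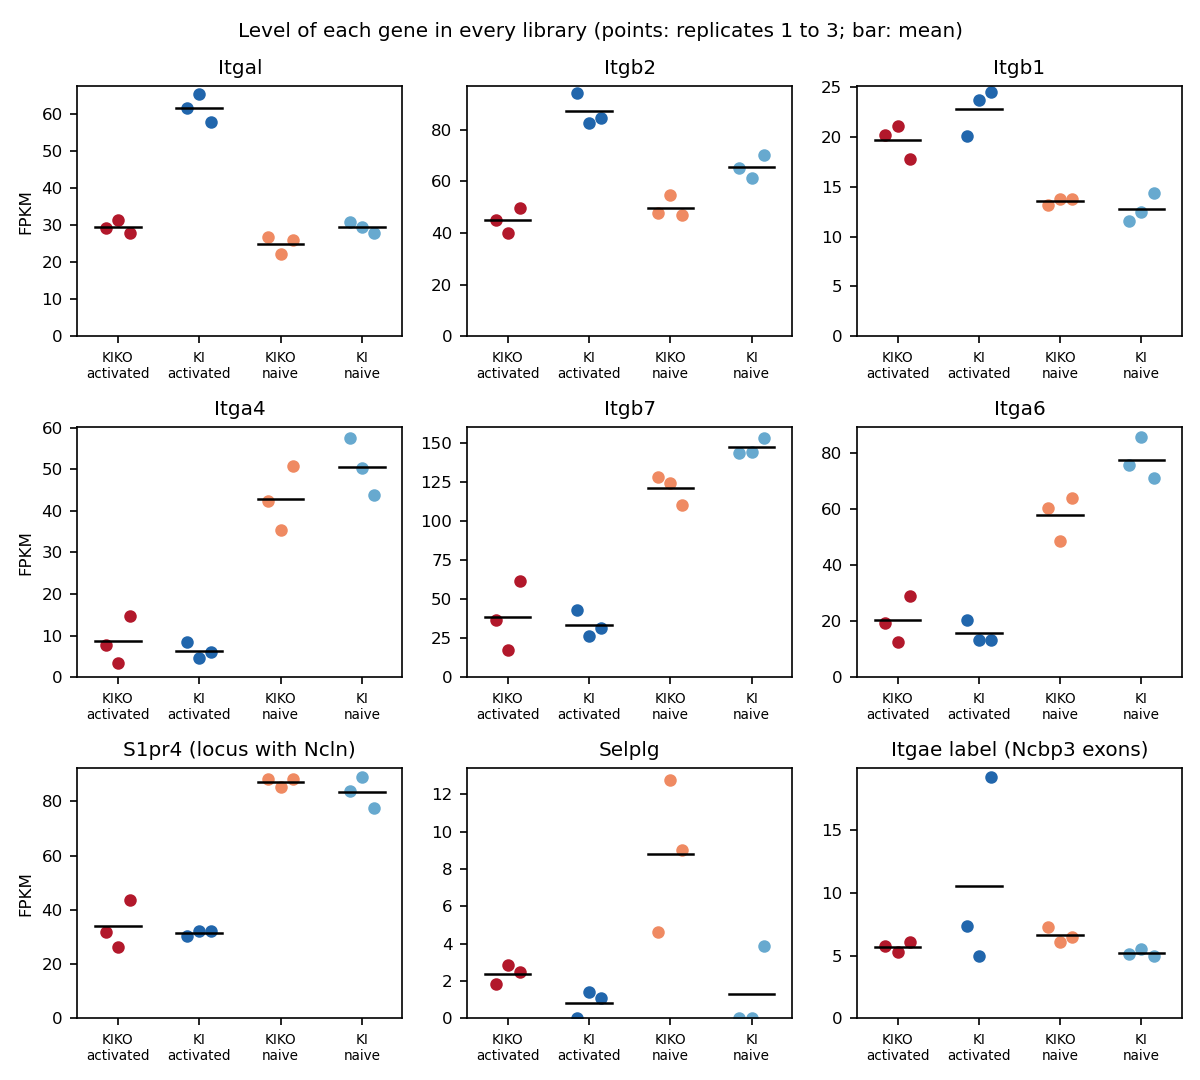
Level in FPKM (linear axis from 0) of the 9 genes with a locus, in each of the 12 libraries; points are libraries and bars are means of 3. Itgal and Itgb2 stand highest in KI activated cells, Itgb1 in activated cells of both genotypes, and Itga4, Itgb7, Itga6 and the S1pr4 locus in naive cells of both.

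After activation both chains of LFA-1 were lower in KIKO than in KI cells. Itgal, the alpha chain (chr7:126895129-126934312, GRCm39, plus strand), was measured at 29.2, 31.2 and 27.9 FPKM in KIKO activated libraries, against 61.5, 65.2 and 57.8 FPKM in KI activated libraries. In naive cells it lay at 26.8, 22.0 and 26.0 FPKM in KIKO and at 30.9, 29.4 and 27.8 FPKM in KI libraries. The 3 KI activated libraries were thus above all other 9, while KIKO activated libraries covered about the range of KI naive ones. The mean was 29.4 ± 1.67 FPKM in KIKO activated cells and 61.5 ± 3.74 FPKM in KI activated cells (SD, n = 3 each), a ratio of 0.478. On the log2 scale Itgal was lower in KIKO activated cells by -1.04 ± 0.10 (SE, limma adjusted p = 7.89e-06). Naive KIKO and KI libraries did not overlap either, but the difference of -0.23 ± 0.10 was not called (limma adjusted p = 0.146).

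Itgb2, the beta chain that Itgal shares with the myeloid integrins (chr10:77366086-77410909, plus strand), gave 44.9, 40.2 and 49.6 FPKM in KIKO activated libraries and 94.2, 82.5 and 84.3 FPKM in KI activated libraries. Its naive levels were 47.6, 54.7 and 46.9 FPKM in KIKO and 65.2, 61.2 and 70.2 FPKM in KI libraries. All KIKO libraries, activated or naive, lay below all KI libraries. The difference between KIKO and KI was -0.94 ± 0.10 after activation (limma adjusted p = 2.75e-05) and -0.39 ± 0.10 in naive cells (limma adjusted p = 0.0317), both called. In the naive comparison the call held in 16 of 24 other settings, with adjusted p up to 0.105. It was lost with the replicate number as a block (limma adjusted p = 0.0508), at an equal sum (-0.30, limma adjusted p = 0.0763) and on leaving out any 1 of KIKO naive 1, KIKO naive 3, KIKO activated 1, KI naive 1, KI naive 2 or KI naive 3, at -0.44 to -0.34. Without KIKO activated 2 and KIKO naive 2, the activated differences were -1.08 for Itgal and -0.87 for Itgb2 (limma adjusted p = 2.51e-05 and 1.11e-04). The naive differences were then -0.15 for Itgal, not called, and -0.46 for Itgb2, still called (limma adjusted p = 0.33 and 0.0186). The lower T cell marker sum of KIKO libraries had the same direction as these genotype differences, and its part in them was not tested. The summed level of all loci had that direction too. In activated cells it was 327187 to 344365 FPKM in KIKO and 364049 to 380944 FPKM in KI libraries. In naive cells it was 307122 to 320055 FPKM in KIKO and 323540 to 357099 FPKM in KI libraries. Both activated differences were called in all other settings, an equal sum among them. They ranged from -1.10 to -0.91 for Itgal and from -1.02 to -0.74 for Itgb2.

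On activation the LFA-1 chains rose in KI cells, while neither was called in KIKO cells. Itgal was higher in KI activated than in KI naive cells by 1.04 ± 0.10 (limma adjusted p = 1.99e-06) and Itgb2 by 0.40 ± 0.10 (limma adjusted p = 0.00452). In KIKO cells the corresponding differences were 0.23 ± 0.10 for Itgal (95% interval 0.03 to 0.44, limma adjusted p = 0.0623) and -0.15 ± 0.10 for Itgb2 (-0.37 to 0.08, limma adjusted p = 0.266). The Itgal difference in KIKO cells was called without KIKO naive 1 (0.29) and with summed ends only (0.29, limma adjusted p = 0.0218). Without KIKO activated 2 and KIKO naive 2 the KIKO values were 0.11 for Itgal and -0.0006 for Itgb2 (limma adjusted p = 0.42 and 0.998). The difference between the 2 activation responses, KIKO minus KI, was itself called: -0.81 ± 0.13 for Itgal (limma adjusted p = 0.00203) and -0.55 ± 0.15 for Itgb2 (limma adjusted p = 0.0201). For Itgal it was called in all 24 other settings, between -0.93 and -0.64. For Itgb2 it missed the threshold under quantile normalization (-0.32), without KI naive 2 (-0.50) and without both KIKO libraries that hold myeloid transcripts (-0.40, limma adjusted p = 0.0591). The rise of Itgb2 in KI cells was also lost under quantile normalization, at 0.11.

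**Figure D2:**
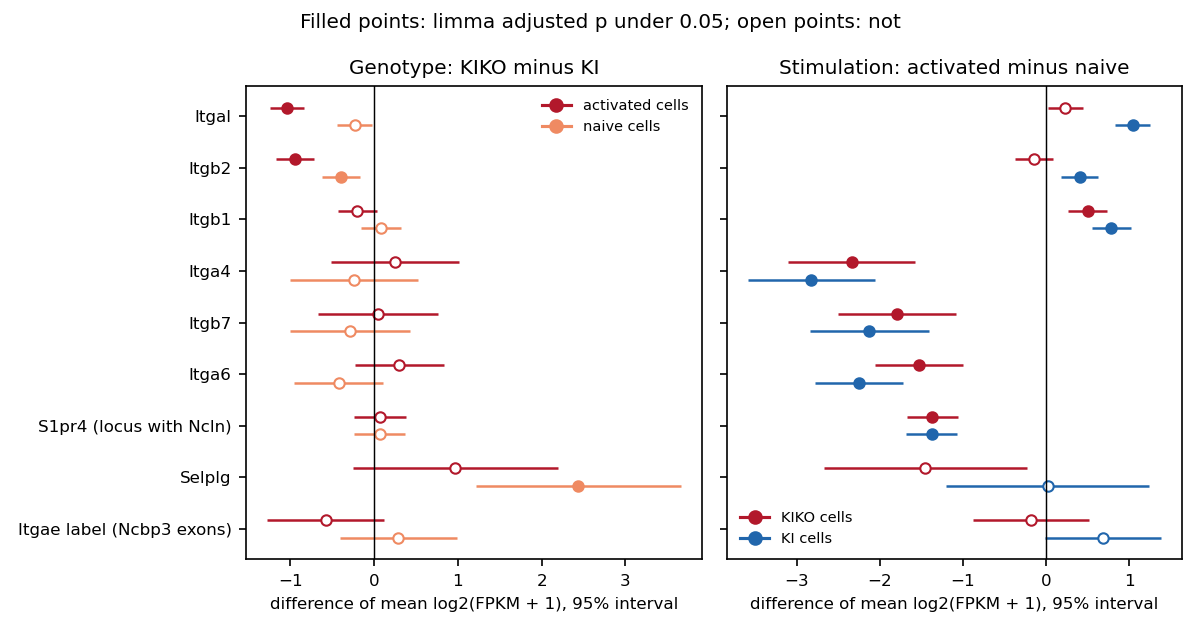
Differences of mean log2(FPKM + 1) with 95% intervals, KIKO minus KI on the left and activated minus naive on the right; filled points passed the limma test and open points did not. Itgal and Itgb2 lie left of 0 for activated cells in the genotype panel, and Itga4, Itgb7, Itga6 and the S1pr4 locus lie far left of 0 for both genotypes in the activation panel.

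Itgb1, the common beta chain of the VLA integrins (chr8:129411462-129459098, plus strand), rose on activation in both genotypes. Its level was 20.2, 21.1 and 17.8 FPKM in KIKO activated, 20.1, 23.7 and 24.4 FPKM in KI activated, 13.2, 13.8 and 13.7 FPKM in KIKO naive and 11.6, 12.5 and 14.4 FPKM in KI naive libraries. Every activated library was above every naive one, and the genotypes overlapped in both states. The rise was 0.50 ± 0.11 in KIKO cells (limma adjusted p = 0.00243) and 0.78 ± 0.11 in KI cells (limma adjusted p = 5.22e-05). The test did not separate the 2 rises, which differed by -0.28 with a 95% interval of -0.62 to 0.05 (limma adjusted p = 0.222).

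The alpha chains Itga4 and Itga6 and the beta chain Itgb7 fell on activation in both genotypes. Itga4, the chain shared by the VCAM and MAdCAM receptors (chr2:79085388-79163467, plus strand), stood at 7.88, 3.5 and 14.8 FPKM in KIKO activated, 8.41, 4.63 and 6.07 FPKM in KI activated, 42.3, 35.3 and 50.8 FPKM in KIKO naive and 57.5, 50.2 and 43.7 FPKM in KI naive libraries. It fell by 2.34 ± 0.35 in KIKO cells (limma adjusted p = 2.27e-04) and by 2.83 ± 0.35 in KI cells (limma adjusted p = 2.14e-05). Activated and naive libraries were far apart, and the genotypes overlapped in each state.

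Itgb7, the gut-homing beta chain (chr15:102121558-102140379, minus strand), was the most abundant of the integrin genes in naive cells. It had 36.6, 17.4 and 61.6 FPKM in KIKO activated, 43.2, 26.1 and 31.7 FPKM in KI activated, 128, 125 and 110 FPKM in KIKO naive and 144, 144 and 153 FPKM in KI naive libraries. Activation lowered it by 1.79 ± 0.33 in KIKO cells (log2, limma adjusted p = 8.17e-04) and by 2.12 ± 0.33 in KI cells (limma adjusted p = 1.25e-04). The naive KIKO libraries were all below the naive KI libraries, but their difference of -0.28 ± 0.33 was not called (limma adjusted p = 0.629).

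Itga6, the laminin receptor chain (chr2:71617235-71684007, plus strand), was measured at 19.3, 12.7 and 28.9 FPKM in KIKO activated, 20.5, 13.4 and 13.3 FPKM in KI activated, 60.6, 48.7 and 64.1 FPKM in KIKO naive and 75.8, 85.7 and 71.1 FPKM in KI naive libraries. It fell by 1.53 ± 0.24 in KIKO cells (limma adjusted p = 3.41e-04) and by 2.25 ± 0.24 in KI cells (limma adjusted p = 7.28e-06). Again the naive genotypes did not overlap, with a difference of -0.42 ± 0.24 that was not called (limma adjusted p = 0.294). The smaller fall in KIKO cells was not separated from that in KI cells by the test of the difference, 0.73 ± 0.34 (limma adjusted p = 0.162), but it was without KIKO activated 2 (1.01, limma adjusted p = 0.026).

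For Itga4, Itgb7 and Itga6 the KIKO activated libraries differed widely among themselves: KIKO activated 3 was highest and KIKO activated 2, the library with myeloid transcripts, was lowest in all 3 genes. The activated KIKO minus KI differences were 0.25 ± 0.35 for Itga4, 0.05 ± 0.33 for Itgb7 and 0.30 ± 0.24 for Itga6, none called (limma adjusted p = 0.611, 0.925 and 0.35). Without KIKO activated 3 the Itga4 and Itgb7 values turned to -0.19 and -0.37. Without KIKO activated 2 and KIKO naive 2 they were 0.71 for Itga4 and 0.59 for Itga6, and both passed the test (limma adjusted p = 0.0457 and 0.0376). Whether these genes differ between activated KIKO and KI cells therefore rests on single libraries.

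Ratios within a library set the possible partners beside each other, as a description. The Itgal to Itgb2 ratio of FPKM was 0.65, 0.78 and 0.56 in KIKO activated libraries, against 0.65, 0.79 and 0.68 with KI cells in that state. In naive cells it was 0.56, 0.40 and 0.55 in KIKO naive and 0.47, 0.48 and 0.40 in KI naive libraries. The 2 LFA-1 chains thus kept a like ratio in both genotypes after activation although their levels differed. Itga4 to Itgb1 lay between 0.17 and 0.83 in KIKO activated and between 0.20 and 0.42 in KI activated libraries, but between 2.56 and 3.70 in KIKO naive and between 3.03 and 4.97 in KI naive libraries. Itgb1 to Itgb7 moved the other way, with 0.55, 1.21 and 0.29 in KIKO activated and 0.47, 0.91 and 0.77 in KI activated libraries, against 0.10 to 0.12 in KIKO naive and 0.08 to 0.09 in KI naive libraries. So Itga4 exceeded Itgb1 transcript in each naive library and was below it in each activated library. Itga4 to Itgb7 changed less, with 0.20 to 0.24 in KIKO activated, 0.18 to 0.19 in KI activated, 0.28 to 0.46 in KIKO naive and 0.28 to 0.40 in KI naive libraries.

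**Figure D3:**
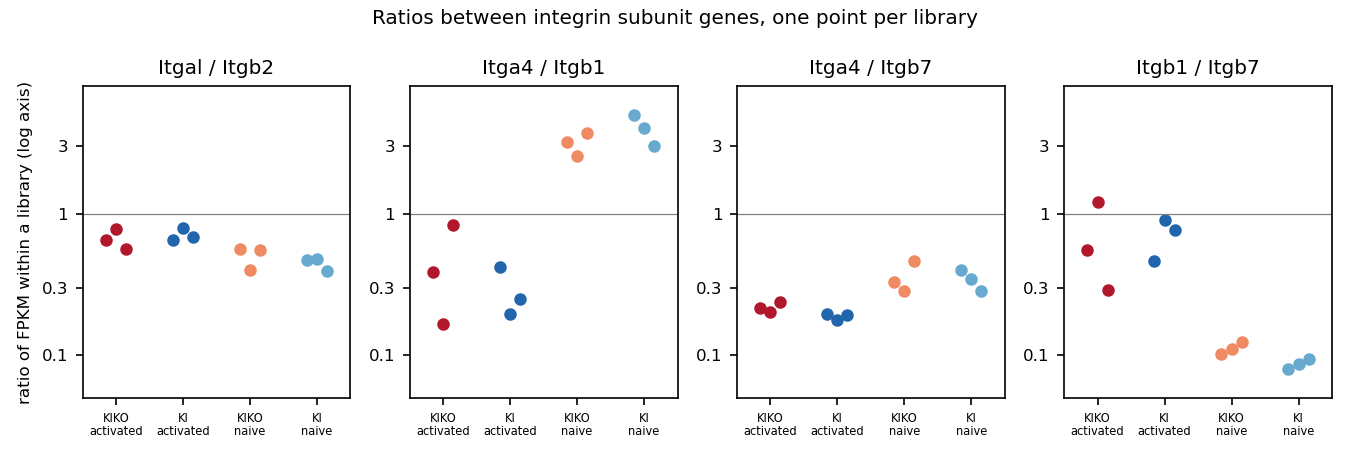
FPKM ratio of integrin subunit genes within a library (log axis), 1 point per library, 3 libraries a group. The Itga4 to Itgb1 ratio lies above 1 in all naive and below 1 in all activated libraries, and the Itgal to Itgb2 ratio spans 0.40 to 0.79 over all 12.

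The tail exons printed above showed 1 form of Itgb1 and 2 of Itga6. No library gave any FPKM to the Itgb1 transcript with the 81-bp exon, while the transcript without it had 11.5 to 24.4 FPKM. The 130-bp exon of Itga6 was kept in 85.6%, 74.2% and 85.7% of the FPKM at that exon in KIKO activated, in 78.9%, 61.8% and 100% in KI activated, in 83.3%, 98.9% and 90.7% in KIKO naive and in 100%, 84.2% and 86.2% in KI naive libraries. Form A was thus the larger in all 12 libraries and the 4 groups overlapped. The read numbers behind these shares are unknown.

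The locus named S1pr4 (chr10:81322932-81336038, minus strand) fell on activation, but it joins 2 genes. Its level was 31.8, 26.4 and 43.6 FPKM in KIKO activated, 30.5, 32.1 and 32.1 FPKM in KI activated, 88.3, 85.4 and 88.2 FPKM in KIKO naive and 83.9, 89.2 and 77.5 FPKM in KI naive libraries. The fall was 1.37 ± 0.14 in each genotype (limma adjusted p = 1.72e-05 in KIKO and 4.7e-06 in KI cells), and neither genotype difference was called. However, all of its ends and a 313-bp start exon have the lengths of exons of Ncln, a gene of an endoplasmic reticulum protein that lies just downstream. The other starts, 3 exons of 627, 1773 and 1899 bp, lie 1913 to 3812 bp upstream of that Ncln exon, and in GENCODE the 2386-bp exon of S1pr4 lies 1354 to 3740 bp upstream of it. Their lengths equal no exon of the genes there, so they are called the starts at S1pr4 by position only.

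The starts at S1pr4 summed to 16.2, 2.33 and 34.0 FPKM in KIKO activated, 1.05, 0 and 7.22 FPKM in KI activated, 81.0, 73.1 and 80.6 FPKM in KIKO naive and 75.4, 77.7 and 67.2 FPKM in KI naive libraries. The starts in the first exon of Ncln had 15.6, 23.5 and 2.80 FPKM in KIKO activated, 27.8, 29.5 and 22.7 FPKM in KI activated, 1.86, 0 and 1.36 FPKM in KIKO naive and 1.38, 1.07 and 1.14 FPKM in KI naive libraries. The starts at S1pr4 were the larger in every naive library, and those of Ncln in KIKO activated 2 and all KI activated libraries. KIKO activated 1 had about equal parts, and KIKO activated 3 had mainly the S1pr4 ones. This split was chosen after the values were seen. By it the S1pr4 starts fell by 2.65 ± 0.78 in KIKO cells (limma adjusted p = 0.0148) and by 4.86 ± 0.78 in KI cells (limma adjusted p = 1.74e-04). After activation they were higher in KIKO than in KI cells by 2.30 ± 0.78 (limma adjusted p = 0.0337), with overlapping libraries, and the difference of the activation responses was not called (2.21 ± 1.10, limma adjusted p = 0.185). Starts of Ncln rose by 2.61 ± 0.56 in KIKO cells (limma adjusted p = 0.00224) and by 3.65 ± 0.56 in KI cells (limma adjusted p = 1.14e-04).

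**Figure D4:**
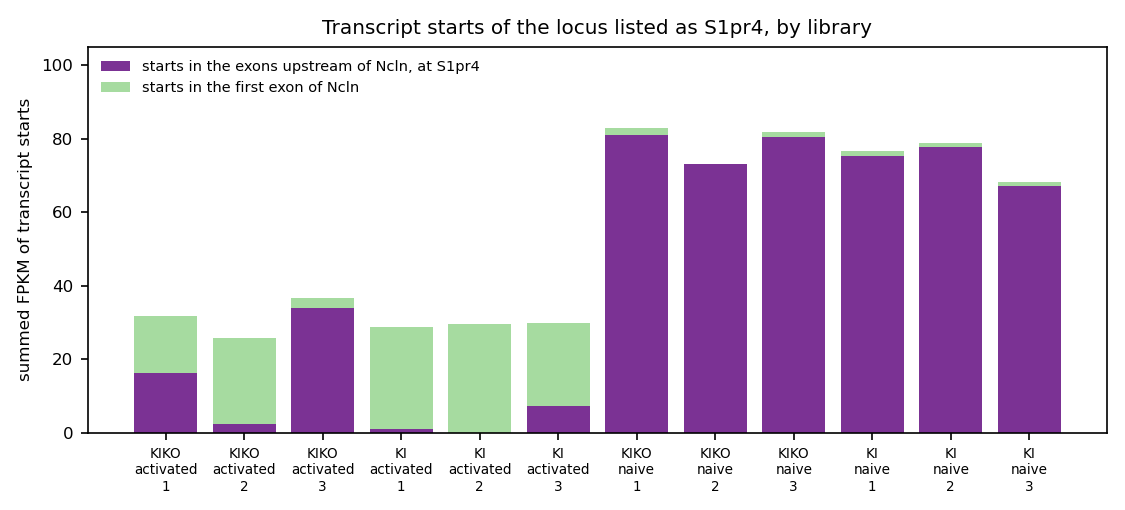
Summed FPKM of the transcript starts of the locus named S1pr4 in each library (linear axis from 0), split into starts at S1pr4 and starts in the first exon of Ncln. The starts at S1pr4 make up nearly all of the bar in the 6 naive libraries, and those of Ncln most of it in KIKO activated 2 and the 3 KI activated libraries.

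Selplg, the P-selectin ligand (chr5:113956016-113970705, minus strand), was listed patchily. It had 1.86, 2.84 and 2.47 FPKM in KIKO activated, 0, 1.42 and 1.10 FPKM in KI activated, 4.64, 12.8 and 9.02 FPKM in KIKO naive, and 0, 0 and 3.90 FPKM in KI naive libraries. All KIKO libraries were above the KI libraries of the same state (lowest 4.64 against highest 3.90 FPKM in naive cells), and 3 of the 6 KI libraries had no value. The difference between KIKO and KI was called in naive cells, 2.44 ± 0.56 (limma adjusted p = 0.0188), and not in activated cells, 0.97 ± 0.56 (limma adjusted p = 0.193). The naive call was lost with a pseudocount of 0.1, without KIKO naive 2, KIKO naive 3, KI naive 1 or KI naive 2, in a fit of the naive groups alone, and without the 2 KIKO libraries that hold myeloid transcripts (2.15, limma adjusted p = 0.07). Myeloid cells also carry this ligand. KIKO naive 2, with the most myeloid transcript, had the highest Selplg value, and KIKO naive 3, with the lowest myeloid sum of its group (0.87 FPKM), had 9.02 FPKM. KIKO activated 2, with a myeloid sum of 172 FPKM, had 2.84 FPKM against 2.47 FPKM in KIKO activated 3, where that sum was 0.04. The part of myeloid cells in the Selplg values was not tested. Of its transcript starts only a 216-bp exon has the length of a Selplg exon, a length that an exon of nearby Svop shares. It was listed in 4 libraries: KIKO activated 2, KI activated 2, KI activated 3 and KIKO naive 3. The values of KIKO activated 1 and 3, KIKO naive 1 and 2 and KI naive 3 came from starts of 774, 131 or 1686 bp that match no exon length of the genes there. The length of the 892-bp end, which all starts share, matches none either, but 1 of the 4 distances from a start to that end equals a distance between splice sites of Selplg. The naive difference therefore rests largely on starts whose exon lengths do not match Selplg. A value of 0 here means only that the file lists no event of the locus.

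The locus named Itgae (chr11:72938609-72999806, plus strand) had the exons of another gene. Its 300-bp start exon and 10377-bp end exon, present in all 12 libraries, have the lengths of those of Ncbp3, a cap-binding protein gene that lies 1265 bp upstream of Itgae. The 72-bp first exon of Itgae itself, at the same 1265 bp from that end, was listed in 2 libraries only, at 0.145 FPKM in KIKO activated 1 and 0.524 FPKM in KIKO naive 1. The locus level was 5.78, 5.27 and 6.07 FPKM in KIKO activated, 7.34, 4.94 and 19.2 FPKM in KI activated, 7.26, 6.05 and 6.5 FPKM in KIKO naive and 5.15, 5.52 and 4.99 FPKM in KI naive libraries, and no comparison called it with all libraries. Without KI activated 2 it was called between activated KIKO and KI cells (-0.96, limma adjusted p = 0.0212), for KI activation (1.06, limma adjusted p = 0.00672) and for the difference of responses (-1.24, limma adjusted p = 0.0463). These values say nothing of the alpha E chain. For Cxcr4 no library lists a locus of that name, so its level by the rule is 0 in all 12 and it was not tested. The files do not list every gene, so this is no evidence that the gene was silent.

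Of the 10 members 9 were tested. Between activated KIKO and KI cells 0 members were higher and 2 lower (Itgal and Itgb2), where 40% of all 9743 loci were called, 20.7% higher and 19.3% lower. In naive cells 1 was higher (Selplg) and 1 lower (Itgb2), where 10.4% of loci were called, 6.46% higher and 3.9% lower. On activation of KIKO cells 1 rose (Itgb1) and 4 fell (Itga4, Itgb7, Itga6 and the S1pr4 locus), where 47.3% of loci were called, 25.1% higher and 22.2% lower. On activation of KI cells the same 4 fell and 3 rose (Itgal, Itgb2 and Itgb1), where 61.7% were called, 32.2% higher and 29.5% lower. The difference of the activation responses was called for 2 members, both lower, where 20.6% of loci were called, 8.99% higher and 11.6% lower. The shares of the 9 members were not tested against those of all loci. Without KIKO activated 2 and KIKO naive 2 the members called were 4 between activated cells, 1 between naive cells, 5 for KIKO activation, 7 for KI activation and 2 for the difference of responses. The median member difference was 0.05 between activated KIKO and KI cells, against 0.04 over all loci, and -0.23 between naive KIKO and KI cells, against 0.05. It was -1.37 for KIKO activation and 0.02 for KI activation, against 0.00 and -0.01 over all loci, and -0.28 for the difference of responses, against -0.01.

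Across the 12 libraries the members fell into patterns that share the group differences above. Itga4, Itgb7, Itga6 and the S1pr4 locus had Pearson r of 0.96 to 0.99 with each other, and Itgb1 had r of -0.97 to -0.94 with them. Itgal and Itgb2 had r = 0.78. Among 6388 named loci with a mean of at least 5 FPKM, the loci most like Itgal were Cd6, a T cell receptor of ALCAM (r = 0.992), Mbd3 (0.982) and Ldha, lactate dehydrogenase A (0.981). Those most like Itgb2 were Cuta (0.961), Il2rg, the common cytokine receptor chain (0.96), and Cotl1 (0.955). Closest to Itgb7 were Sun2, Slc28a2b and Cnp (each 0.993), and closest to Itga6 were Add3 (0.998), Add1 (0.994) and Itpkb (0.993).

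Of 38 genes of integrin activation and its control, which include genes that act against it, 33 were tested. Between activated KIKO and KI cells 8 were higher and 8 lower, where 20.7% of all loci were higher and 19.3% lower. For the difference of activation responses 2 were higher and 4 lower, where 8.99% of all loci were higher and 11.6% lower. Fermt3, the kindlin of blood cells that binds beta chain tails, averaged 59.0 ± 4.00 FPKM in KIKO activated and 107 ± 5.59 FPKM in KI activated cells, and 67.5 ± 3.67 FPKM in KIKO naive and 73.6 ± 4.17 FPKM in KI naive cells (SD, n = 3). It was lower in KIKO activated cells by -0.85 ± 0.09 (limma adjusted p = 1.5e-05), and like the LFA-1 chains it rose in KI cells while KIKO cells were not called (difference of responses -0.73 ± 0.12, limma adjusted p = 0.00199). Rap1a and Rap1b, the GTPases upstream of talin, were lower in activated KIKO cells by -0.61 ± 0.09 and -0.73 ± 0.08 (limma adjusted p = 3.28e-04 and 1.99e-05). Sipa1, which switches Rap off, was lower too, at -0.86 ± 0.10 (limma adjusted p = 3.14e-05). Tln1, talin, was lower by -0.35 ± 0.10 (limma adjusted p = 0.0129), whereas Lims1, an adaptor of the integrin-linked kinase complex, was higher by 0.85 ± 0.11 (limma adjusted p = 7.76e-05). Rap1b and Tln1 were lower in naive KIKO cells too, by -0.33 ± 0.08 and -0.33 ± 0.10 (limma adjusted p = 0.0179 and 0.0493). They were the 2 called of 33 tested in naive cells, where 10.4% of all loci were called. For Tln1 the difference of responses was -0.02 ± 0.14 (limma adjusted p = 0.949). Rasgrp2, the exchange factor for Rap, fell on activation by 1.89 ± 0.37 in KIKO and by 2.54 ± 0.37 in KI cells (limma adjusted p = 0.0012 and 7.31e-05), along with Itga4 and Itgb7.

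Among other integrin subunits 5 of 19 were tested, and Itgav alone was called between activated KIKO and KI cells, where 40% of all loci were called. It had 5.41 ± 1.00 and 3.30 ± 0.37 FPKM (difference 0.57 ± 0.14, limma adjusted p = 0.00699). Of 20 membrane partners of integrins 14 were tested, and 4 were higher and 5 lower in activated KIKO cells, where 40% of all loci were called. The tetraspanins Cd151 and Cd81 were higher by 1.97 ± 0.17 and 1.61 ± 0.15, as was Slc3a2, the CD98 heavy chain that binds beta chain tails, by 1.60 ± 0.17 (limma adjusted p = 5.92e-06, 9.37e-06 and 2.11e-05). The tetraspanin Cd82 was lower by -1.43 ± 0.18 and the adhesion receptor Cd226, which associates with LFA-1, by -2.15 ± 0.24 (limma adjusted p = 7.11e-05 and 3.03e-05). In naive cells 1 of the 14 was higher and 4 lower in KIKO, where 6.46% of all loci were higher and 3.9% lower. Cd151 had 7.245, 9.54 and 7.70 FPKM in KIKO naive and 4.67, 4.84 and 3.18 FPKM in KI naive libraries. Cd81 had 11.9, 11.6 and 11.7 against 7.10, 9.20 and 7.77 FPKM there, and Cd82 had 23.5, 15.3 and 22.3 against 31.1, 31.3 and 35.4 FPKM. Cd226 and Slc3a2 overlapped between the naive genotypes.

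Of the other homing receptors, Ccr7, the lymph node chemokine receptor, was lower in KIKO activated cells, with 133 ± 8.44 against 241 ± 38.2 FPKM in KI activated cells (difference -0.85 ± 0.12, limma adjusted p = 1.54e-04). It was the 1 of 4 tested of 24 chemokine receptors that was called there, where 40% of all loci were called. Cd44, the hyaluronan receptor of activated T cells, was higher, with 23.7, 26.9 and 12.5 FPKM in KIKO activated and 8.21, 9.07 and 10.3 FPKM in KI activated libraries (1.05 ± 0.26, limma adjusted p = 0.00693), and with the sulfotransferase Tpst1, which was lower (-1.18 ± 0.34, limma adjusted p = 0.0162), it made up the 2 called of 15 tested genes of selectins and their ligands, where 40% of all loci were called. Of these 15 genes 1 was higher and 2 lower in naive KIKO cells, where 6.46% of all loci were higher and 3.9% lower. The lower ones were Tpst2 (-0.49 ± 0.09) and Adam10 (-0.37 ± 0.08), with limma adjusted p of 0.00845 and 0.0132. In the sphingosine 1-phosphate group, Sgpl1, the lyase that degrades the lipid, was higher in activated KIKO cells by 1.01 ± 0.11 (limma adjusted p = 3.19e-05). Spns1, counted in this group, was higher there by 0.57 ± 0.15 (limma adjusted p = 0.0106), and these data do not show whether it acts on this lipid. Cd69, which retains T cells by removing a receptor of this lipid, rose by 3.77 ± 0.18 in KIKO and by 4.70 ± 0.18 in KI cells (limma adjusted p = 5.96e-08 and 5.67e-09). The difference between these 2 rises was -0.92 ± 0.25 (limma adjusted p = 0.0218). Cd69 was already higher in naive KIKO than in naive KI cells (0.75 ± 0.18, limma adjusted p = 0.0198), and the activated cells were not called (-0.17 ± 0.18, limma adjusted p = 0.477). Sgpp1 of the same group was lower in naive KIKO cells (-0.36 ± 0.08, limma adjusted p = 0.0163). Of 5 tested genes of that group 1 was higher and 1 lower in naive KIKO cells, where 6.46% of all loci were higher and 3.9% lower.

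Among 26 tested signalling genes of these receptors, 2 were higher and 7 lower in activated KIKO cells, where 40% of all loci were called. The lower ones include Coro1a, an actin regulator needed for T cell exit (-0.93 ± 0.14), Wipf1, the partner of the Wiskott-Aldrich protein (-1.13 ± 0.15), and the GTPase Cdc42 (-0.41 ± 0.08), with limma adjusted p of 2.8e-04, 1.32e-04 and 0.00137. The other 2 that differed were higher: Rgs2, which damps G protein signals (0.70 ± 0.15), and Ric8a, a chaperone of G protein subunits (0.52 ± 0.10), with limma adjusted p of 0.00312 and 0.00138. In naive cells Rgs2 was lower in KIKO than in KI (-0.96 ± 0.15, limma adjusted p = 0.0028). Of the 26 genes 0 were higher and 4 lower there, where 6.46% of all loci were higher and 3.9% lower. Cdc42 had 83.3, 93.4 and 83.2 FPKM in KIKO naive and 110, 113 and 119 FPKM in KI naive libraries. Of 22 tested regulators of homing receptors, 10 were higher and 5 lower in activated KIKO cells, where 20.7% of all loci were higher and 19.3% lower. Klf2, the factor that maintains homing receptors in naive T cells, had 208, 139 and 255 FPKM in KIKO activated and 148, 76.3 and 77.0 FPKM in KI activated libraries, and averaged 392 ± 5.98 FPKM in KIKO naive and 453 ± 19.5 FPKM in KI naive cells. It was higher in KIKO activated cells by 1.02 ± 0.24 (limma adjusted p = 0.00539), having fallen less on activation (1.23 ± 0.34, limma adjusted p = 0.0255). Runx1, a RUNX factor of T cell development, was higher too (0.96 ± 0.11), and the transcription regulators Id2, Id3 and Batf were lower (-1.57 ± 0.17, -1.09 ± 0.13 and -0.65 ± 0.10), with limma adjusted p from 2.47e-05 to 3.47e-04. In naive cells Id3 and Batf were higher in KIKO than in KI (0.72 ± 0.13 and 0.57 ± 0.10, limma adjusted p = 0.00565 and 0.00497), and Id2 was lower (-0.77 ± 0.17, limma adjusted p = 0.015). The loci named Runx3, B4galt1 and S1pr1 had few or no lengths of their own gene and are not described. Runx3 is nevertheless among the 5 lower regulators, and B4galt1 is the selectin-list gene counted as higher in naive KIKO cells. S1pr1, Fut7 and Gcnt1 did not enter the tests.

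**Figure D5:**
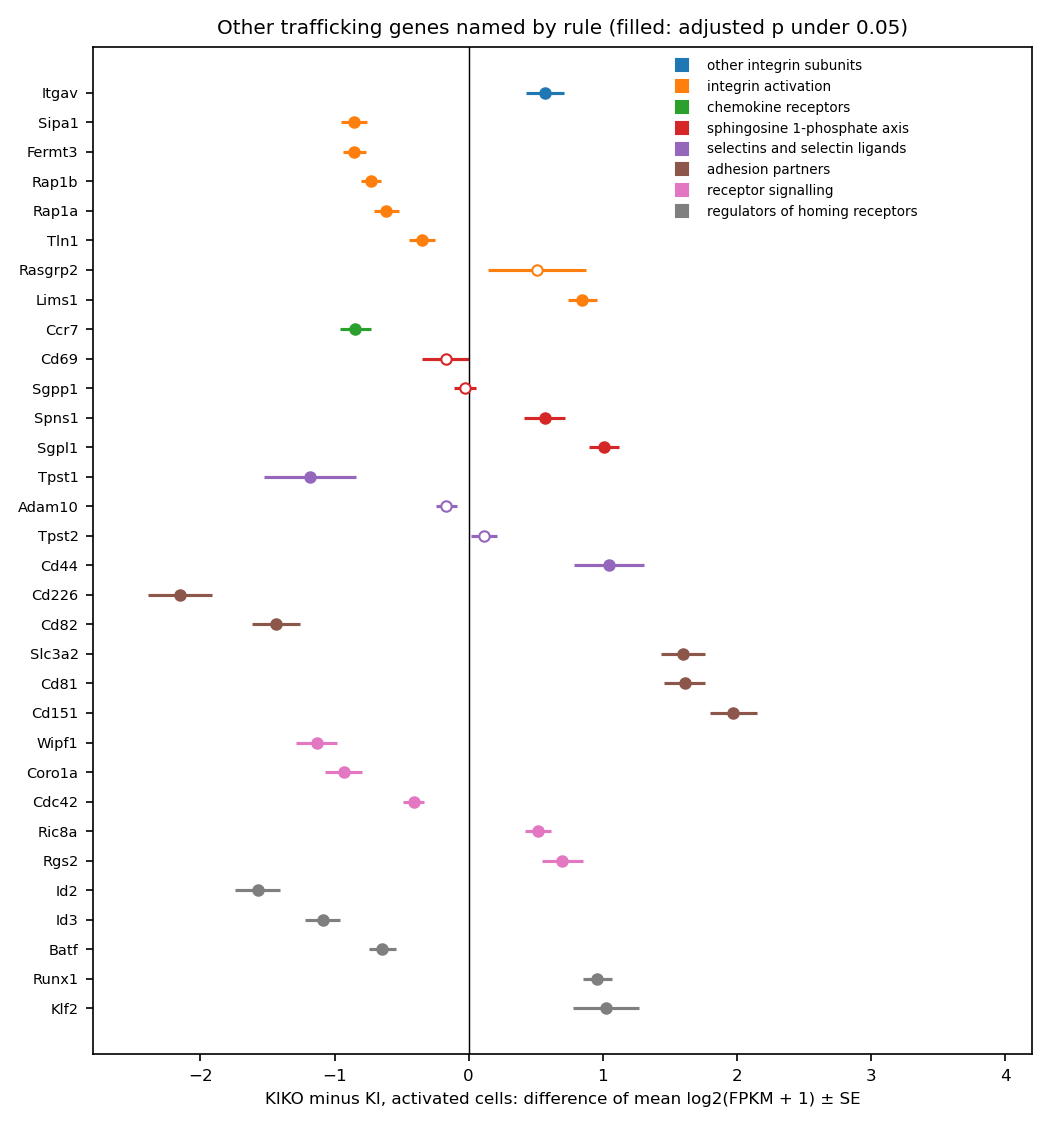
KIKO minus KI difference of mean log2(FPKM + 1) with its SE in activated cells for the other trafficking genes named by rule, coloured by list; filled points passed the limma test. Fermt3, Sipa1, Rap1b and Rap1a lie left of 0 with Ccr7, Cd82 and Coro1a, and Cd151, Cd81, Slc3a2, Cd44 and Klf2 lie right of it.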

How the data were processed

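The deposited values are FPKM per transcript event, 1 file per library, with events of value 0 left out; FastQC 0.11.9, cutadapt 2.9 and HISAT2 2.2.0 are named per the submitters' processing notes, and no source used here names the program behind the FPKM. The labels' protocols give 15 ng of total RNA, poly(A) selection and a stranded SMART-seq kit per library. The KIKO activated titles say T cells without CD4. The notes list the builds GRCm39 and mm10; positions in the files fit GRCm39. Duplicate events were dropped, and of several loci of a name the one with the highest mean was kept. Loci with at least 1 FPKM in at least 3 of 12 libraries, 9743 in all, were fitted as log2(FPKM + 1) with 4 group means and a trend (limma 3.58.1, R 4.3.3, prior degrees of freedom 4), checked on simulated data. Names were checked by exon, intron and span lengths against GENCODE M21, without converting coordinates. Members and lists were chosen with earlier results of these data known. Named genes are the members, up to 5 called genes per list with the smallest genotype or interaction p and at least 5 FPKM in a group, and a few fixed receptors and regulators; for 4 members the 3 loci of highest r are named. 1 gene of a list is not reported here. Depth is unknown, so no counting interval is given.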

Additional observations from a re-analysis of the deposited data

Results flagged for a closer look

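For both chains of LFA-1 the activation response differed between the genotypes by a test of the difference itself. For Itgal the KIKO minus KI difference of responses was -0.81 on the log2 scale (limma adjusted p = 0.00203), with 29.4 ± 1.67 FPKM in KIKO activated, 61.5 ± 3.74 FPKM in KI activated, 25.0 ± 2.56 FPKM in KIKO naive and 29.4 ± 1.56 FPKM in KI naive cells (SD, n = 3 each). For Itgb2 it was -0.55 (limma adjusted p = 0.0201), with 44.9 ± 4.74 FPKM in KIKO activated, 87.0 ± 6.26 FPKM in KI activated, 49.7 ± 4.31 FPKM in KIKO naive and 65.5 ± 4.48 FPKM in KI naive cells. The Itgb2 call was lost under quantile normalization (-0.32), without KI naive 2 (-0.50) and without KIKO activated 2 and KIKO naive 2 (-0.40, limma adjusted p = 0.0591). The summed level of CD4 T cell markers was 622 to 888 FPKM in KIKO activated, 1164 to 1387 FPKM in KI activated, 1002 to 1111 FPKM in KIKO naive and 1386 to 1635 FPKM in KI naive libraries, and its part in these differences was not tested. Of all loci, 20.6% were called for this difference.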

How the results depend on the processing

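Of 1096 values of members under other settings, 1036 kept their direction and side of the threshold, 21 reversed, 19 fell short of the threshold and 20 passed it newly. Between naive KIKO and KI cells the members called were 1, not 2, with a pseudocount of 0.1, an FPKM of at least 5, an equal sum, a replicate block, ends only, only the groups compared, a minimum log2 difference of 1, or both KIKO libraries with myeloid transcripts left out, and 553 (ends only) and 179 (minimum difference) loci were called, against 1009. Between activated KIKO and KI cells members came to 1 (ends only, 2309 loci; minimum difference, 928 loci; against 3898) and 4 (both KIKO libraries left out). For KI activation ends only gave 3 members and 3583 loci, and the minimum difference 2500 loci, against 6013. For KIKO activation ends only gave 3 members and 2746 loci, and the minimum difference 1338 loci, against 4609. For the difference of responses quantile normalization gave 1 member, ends only 1 member and 1114 loci, and the minimum difference 0 members and 722 loci, against 2010. Ends only gave no value for Itgb2, Itga4, Itgb7 and Itga6, and a filter of 5 FPKM none for Selplg, so fewer members were tested there.

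The values that reversed were not called in either setting, and the cause was not tested: the S1pr4 locus in naive cells (-0.00602 with median-ratio scaling) and in the difference of responses (-0.00820 with starts only), Itgb7 in activated cells (-0.0113 with median-ratio scaling), the Itgae locus with ends only (0.31 in activated cells, -0.21 for KI activation, 0.0826 for the difference of responses) and Selplg for KI activation (-0.0123 at an equal sum). With 1 library left out, members called ranged over 0 to 2 (naive), 2 to 3 (activated), 7 to 8 (KI activation), 5 to 7 (KIKO activation) and 1 to 3 (difference of responses), and loci over 493 to 1166, 3043 to 4254, 5336 to 6291, 3574 to 4620 and 1363 to 2085. KIKO minus KI in activated cells then ranged from -0.19 to 0.71 for Itga4, -0.37 to 0.51 for Itgb7 and -0.12 to 0.23 for the S1pr4 locus. Selplg for KI activation ranged from -0.36 to 0.78, and the difference of responses from -0.0856 to 0.797 for Itgb7 and -0.19 to 0.17 for the S1pr4 locus.

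The deviations of same-numbered libraries of different groups had correlations of -0.04 to 0.12 (18 pairs, 2 over 0.1), most of them between genotypes. Between activated and naive KI libraries they were 0.06, 0.08 and 0.10 at the same number, against -0.07 to 0.002 at different numbers. In KIKO they were -0.004, 0.09 and 0.04, against -0.07 to 0.07. The main fit did not use the numbers. The replicate block gives each number 1 effect across both genotypes, and pairing within a genotype was not fitted. Some markers of other cells did go with the number within KIKO: S100a9 had 92.8 and 110 FPKM and Gzma 7.57 and 8.01 FPKM in KIKO activated 2 and KIKO naive 2, and Hba-a1 1.52 and 1.14 FPKM in KIKO activated 1 and KIKO naive 1, against at most 3.69, 0 and 0.158 FPKM in the other libraries. Whether these libraries share a source is not stated in the labels. With the replicate block the members called were 1 in naive cells, 2 in activated cells, 7 and 6 for KI and KIKO activation and 2 for the difference of responses; Itgb2 in naive cells was lost (limma adjusted p = 0.0508) and Selplg for KIKO activation gained. Rescaling to an equal sum moved the median of all loci between activated KIKO and KI cells to 0.15, where it was 0.04, and the share of calls that were higher to 64.9%, where it was 51.8%. In naive cells the share of calls that were higher was 62.3%, against 81% at an equal sum, 44.2% with median-ratio scaling and 49.4% with quantile normalization.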
